A study of Drosophila melanogaster with 9 samples.

Results

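The transcripts of 5 ribosomal proteins that Drosophila encodes with paralogous gene pairs, in which 1 copy is broadly expressed and the other tissue-biased, were compared copy by copy in RNA immunoprecipitates of Larp from ovaries. The pairs were taken by name as RpS5a and RpS5b, RpS15Aa and RpS15Ab, RpS19a and RpS19b, RpL22 and RpL22-like, and RpS10b and RpS10a, with the broadly expressed copy first. Of the 10 genes, 9 matched a feature by identifier among the 17024 features of the count lists, so that both copies were measured for 4 pairs. RpS10b is not analysed here, because its current identifier (FBgn0285947) matched no feature, and RpS10a is given alone. Whether it was counted under an older identifier, among the 377 features without a symbol, was not tested. Larp is a La-related RNA-binding protein. All 9 libraries came from ovaries of flies of the genotype larp::GFP::FLAG, in which Larp carries GFP and a FLAG tag, dissected 1 to 3 days post-eclosion. For each group, 3 libraries were made from RNA recovered with an anti-FLAG antibody (anti-FLAG IP), from RNA recovered with control mouse IgG (IgG), and from a reserved 10% of the lysate (input). The labels name no fly lacking the tag, so IgG was the control for the antibody and not for the tag. Nothing in them says that replicates came from separate animals, so p-values measure the spread between these libraries, which may be technical.

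Ribosomes are built from a small and a large subunit, each holding rRNA and many proteins, and most of the protein genes are present once in the fly genome. Where a gene has been duplicated, 1 copy is usually used in most cells and the other is often biased to the germline. In mammals, LARP1 binds mRNAs that begin with a terminal oligopyrimidine motif, a class that includes the ribosomal protein mRNAs. RpS5b and RpS19b are known as copies expressed in the female germline, and RpL22-like as a copy abundant in testis.

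The libraries held between 11316201 and 17571309 counts. Where a gene had no count, a floor of 3 counts set bounds on its fold changes and shares, while copy ratios added 0.5 to each count. The 85 cytoplasmic ribosomal protein genes found in the lists took 42.3%, 49.5% and 29.5% of counts in anti-FLAG IP replicates 1, 2 and 3. They took 7.21% to 8.79% in IgG and 8.30% to 10.6% in input. Anti-FLAG IP replicate 3 thus stood apart from the other anti-FLAG IP libraries, and fold changes, copy ratios and the RpS19b bound are also given without it. The tissue label was checked against marker genes. All 6 germline markers in the lists, and 6 of 7 follicle cell markers, had at least 10 counts in every library. The summed level of the germline markers was 1924 to 2418 CPM in anti-FLAG IP, 2025 to 2673 in IgG and 2203 to 2421 in input, so that the groups overlapped. CPM are counts scaled to a common library size, here and for all levels below after TMM scaling of the 9 libraries. None of 8 testis markers reached 10 counts in every library and 4 of them were at 0 throughout, with summed levels of 0 to 1.99 CPM in anti-FLAG IP, 0 to 14.5 CPM in IgG and 0 to 2.04 CPM in input. Fat body markers summed to 21.5 to 173 CPM in anti-FLAG IP, 45.7 to 645 in IgG and 16.4 to 38.5 in input. Muscle markers summed to 127 to 352, 226 to 578 and 148 to 325 CPM in the same order. Neuron markers summed to at most 8.75 CPM in any library. Markers of other tissues were thus detected, and their levels varied between libraries, most of all for fat body in IgG.

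RpS5a, RpS5b, RpS15Aa and RpS19a were enriched in anti-FLAG IP over both controls. By the ratio of mean levels against input they were 7.96-fold, 4.22-fold, 15.2-fold and 7.53-fold higher. These folds depend on TMM scaling. In the same order, the edgeR log2 fold changes were 3.01, 2.09, 3.95 and 2.93 with TMM. They were 2.06, 1.19, 2.97 and 1.94 when library totals set the scale, beside a median of -0.88 over all genes tested. A gene was called at an edgeR Benjamini-Hochberg adjusted p-value under 0.05 and a change of at least 2-fold. Of 7575 genes tested against input, 1.83% were called higher and 0.251% lower, while 4 of the 7 members that passed the filter on low counts were higher and 0 were lower. Against IgG, 1.62% of 7408 genes were called higher and 0.0135% lower, with 4 of 7 members higher and 0 lower. RpS19b passed that filter only through its anti-FLAG IP counts, and RpL22-like and RpS10a did not pass it. The other 2 tested members, RpS15Ab and RpL22, were called in neither comparison, and neither was RpS19b. Levels in anti-FLAG IP lay above every input library for 4 of the 6 members other than RpS19b (9.33% of genes tested) and below every input library for 0 (11.0%). They lay above every IgG library for 5 of the same 6 (6.92% of genes tested) and below every one for 0 (5.68%). In both comparisons the called members were 3 of the 4 broadly expressed copies tested and, of the tissue-biased copies, RpS5b but not RpS15Ab. RpS19b is left out of this split, since it passed the filter only through its anti-FLAG IP counts. The comparisons against input and against IgG share the anti-FLAG IP libraries.

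**Figure D1:**
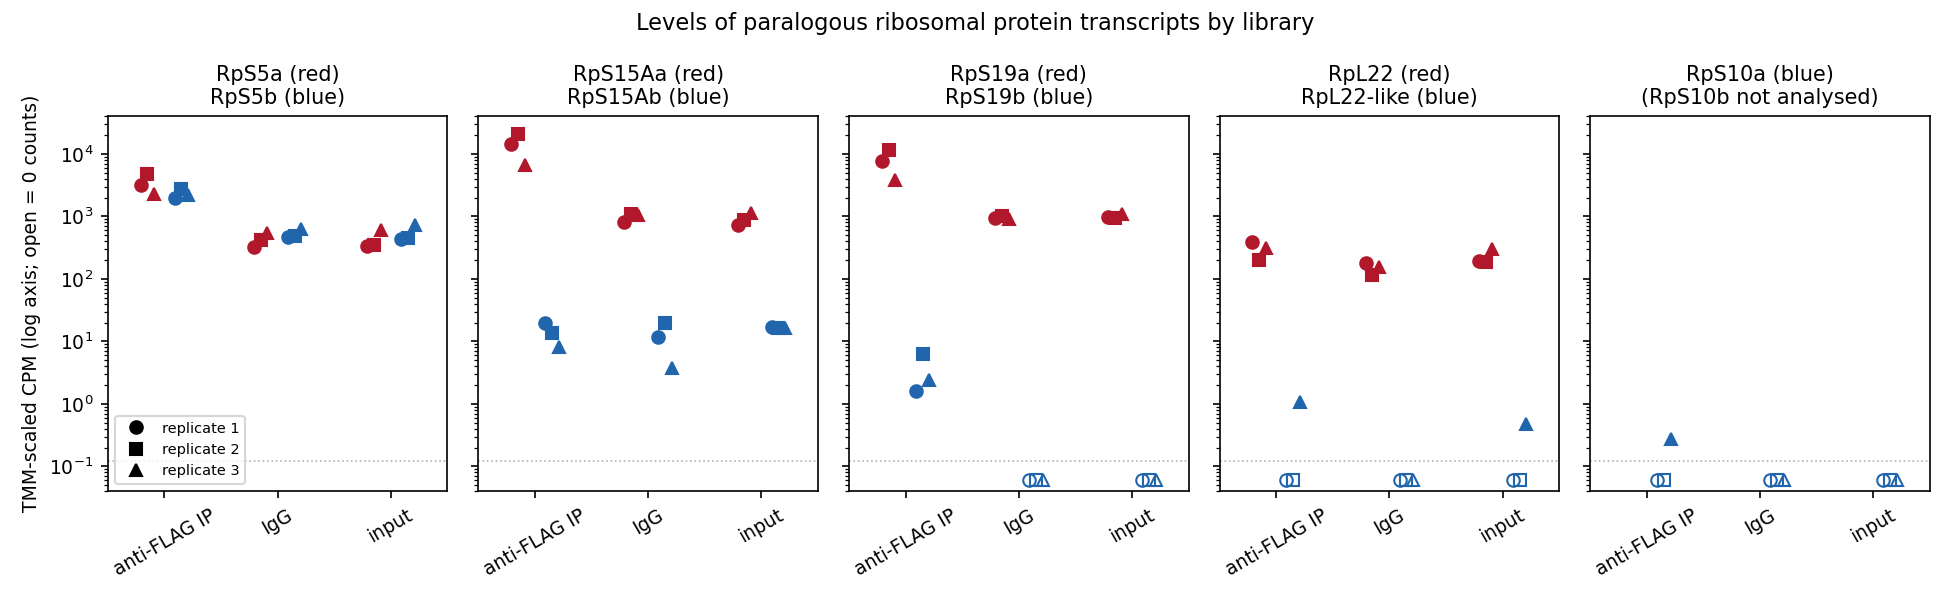
TMM-scaled CPM of each copy in each library on a log axis, with the broadly expressed copy in red and the tissue-biased copy in blue, and replicates 1, 2 and 3 as circles, squares and triangles. Open symbols under the dotted line are libraries with 0 counts, placed there without scale. RpS5a, RpS5b, RpS15Aa, RpS19a and RpS19b lie above IgG and input in all 3 anti-FLAG IP libraries, whereas RpS15Ab stays between 3.77 and 19.97 CPM in all 9 libraries.

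RpS5a (FBgn0002590; X:17143588–17148264, minus strand) is the copy used in most tissues. Its scaled levels were 3240, 4704 and 2252 CPM in anti-FLAG IP, 319, 421 and 545 CPM in IgG, and 339, 344 and 598 CPM in input. RpS5b (FBgn0038277; 3R:14900432–14901563, minus strand), the copy biased to the female germline, had 1971, 2705 and 2215 CPM in anti-FLAG IP. In IgG its levels were 468, 493 and 619 CPM, and in input 438, 459 and 737 CPM. For both copies every anti-FLAG IP library lay above all IgG and input libraries. Replicate 3 had the lowest RpS5a level of the anti-FLAG IP libraries and the highest of the input libraries. The log2 fold change against input was 3.01 ± 0.36 (SE) for RpS5a (edgeR adjusted p = 0.000265) and 2.09 ± 0.28 for RpS5b (edgeR adjusted p = 0.00038). Against IgG it was 3.00 ± 0.34 for RpS5a (edgeR adjusted p = 8.38e-05) and 2.13 ± 0.26 for RpS5b (edgeR adjusted p = 9.69e-05).

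The RpS15A pair had the widest gap in enrichment between copies that were both detected in every library. RpS15Aa (FBgn0010198; X:13335637–13337705, minus strand) encodes the form of this small subunit protein used in most tissues. It had 14310, 20480 and 6702 CPM in anti-FLAG IP, 829, 1074 and 1046 CPM in IgG, and 736, 861 and 1130 CPM in input. The lowest anti-FLAG IP library was thus several-fold above the highest control library. RpS15Ab (FBgn0033555; 2R:10821676–10822399, plus strand) is annotated as a single exon. It had 19.97, 13.7 and 8.21 CPM in anti-FLAG IP, 11.6, 19.97 and 3.77 CPM in IgG, and 16.9, 16.1 and 16.4 CPM in input. These groups overlapped, and the spread was narrow in input and wide in both precipitates. The log2 fold change of RpS15Aa was 3.95 ± 0.47 against input (edgeR adjusted p = 0.000265) and 3.82 ± 0.44 against IgG (edgeR adjusted p = 8.38e-05). That of RpS15Ab was -0.22 ± 0.41 (edgeR adjusted p = 0.876) and 0.24 ± 0.73 (edgeR adjusted p = 0.989). When library totals set the scale, RpS15Ab was called lower against input at -1.16 (edgeR adjusted p = 0.0424), beside a median of -0.88 over all genes tested.

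Raw counts of RpS15Ab were 171, 86 and 91 in anti-FLAG IP, 198, 424 and 52 in IgG, and 275, 261 and 240 in input. RpS15Aa outnumbered it 716, 1496 and 816 times in anti-FLAG IP, against 71.2, 53.8 and 278 times in IgG and 43.6, 53.4 and 68.9 times in input. The 3 anti-FLAG IP libraries had the 3 highest of these ratios, and IgG replicate 3 was the nearest to them. The balance of the copies was read within each library, where the library size cancels, after dividing counts by summed exon length (944 bases for RpS15Aa and 724 for RpS15Ab). Per length, RpS15Ab made up 0.143% ± 0.049 of the pair in anti-FLAG IP, 1.54% ± 0.98 in IgG and 2.38% ± 0.52 in input (SD, n = 3 each). The log2 ratio of RpS15Ab over RpS15Aa averaged -9.51 in anti-FLAG IP and -5.38 in input, a difference of -4.13 ± 0.38 (SE; exact two-sided permutation test, p = 0.1, adjusted p = 0.2 over 12 tests). This p-value is the smallest that 3 against 3 libraries allow, so no ratio difference could pass the threshold in this design. Same-numbered differences ran from -4.80 to -3.56. The difference from IgG was -3.23 ± 0.80 (p = 0.1 by the same exact test), and -3.95 without IgG replicate 3. Without anti-FLAG IP replicate 3 the difference was -4.25 from input and -3.34 from IgG. How reads that match both copies were counted is not given in the sources used here, so the counts of the scarcer copy of any pair are uncertain. Whether reads of RpS15Aa contributed to RpS15Ab was not tested.

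**Figure D2:**
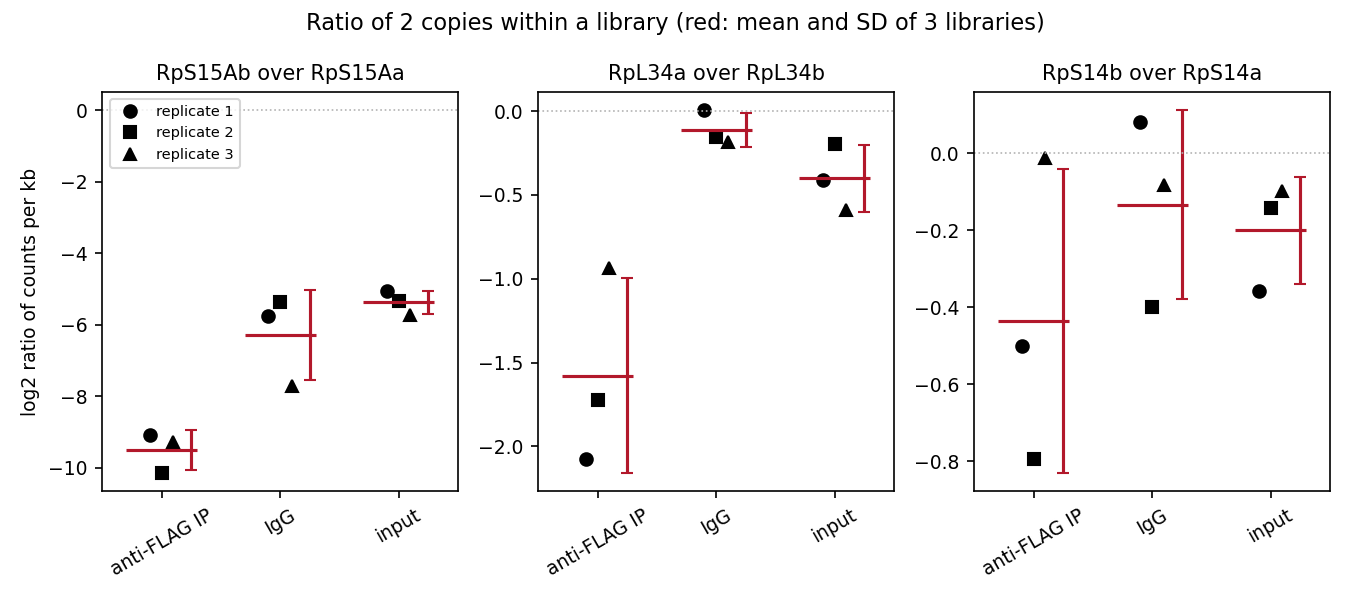
Log2 ratio of the counts per kb of 2 copies in the same library, for RpS15A and for the RpL34 and RpS14 pairs, with replicates as in the plot of levels and the mean and SD of 3 libraries in red. Each panel has its own vertical scale. The anti-FLAG IP libraries lie below IgG and input for RpS15Ab over RpS15Aa and RpL34a over RpL34b, and overlap them for RpS14b over RpS14a.

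The scarcer copy of the RpS19 pair was detected in anti-FLAG IP alone. RpS19a (FBgn0010412; X:16637894–16639249, plus strand) is the widely used copy. It had 7680, 11505 and 3771 CPM in anti-FLAG IP, 958, 1027 and 917 CPM in IgG, and 990, 959 and 1100 CPM in input. Its anti-FLAG IP levels lay above all control libraries, with a log2 fold change of 2.93 ± 0.41 against input (edgeR adjusted p = 0.000451) and 2.99 ± 0.40 against IgG (edgeR adjusted p = 0.000194). RpS19b (FBgn0039129; 3R:23932729–23933530, minus strand), known for expression in early female germ cells, had 14, 39 and 27 counts in anti-FLAG IP and 0 counts in each of the 6 other libraries. Its level of 1.64, 6.21 and 2.44 CPM in anti-FLAG IP was on average at least 17.9-fold higher than a floor of 3 counts per library in input and at least 19.2-fold higher than that floor in IgG. Scaled by library totals alone, these bounds were 9.10-fold and 9.98-fold. Replicate 2 weighed most in them: without it they were 10.6-fold and 11.4-fold after TMM scaling, and without replicate 3 they were 20.5-fold and 21.98-fold. After TMM scaling, the lowest anti-FLAG IP library was 7.97-fold higher than the highest floor in input and 7.52-fold higher than that in IgG. The TMM factor was 0.671 for that library, 1.17 for that input library and 1.22 for that IgG library, so library totals alone give lower values. Neither value allows for the counting error of the 14 counts. The edgeR test did not call RpS19b against input (adjusted p = 0.0784) or against IgG (adjusted p = 0.491), nor did it without anti-FLAG IP replicate 3 (adjusted p = 0.0621 and 0.404). Against input it was called when low counts were not filtered (edgeR adjusted p = 0.0332) and when library totals set the scale (edgeR adjusted p = 0.0213). DESeq2 gave it no adjusted p-value in either comparison. With 0 counts in every control library, these calls are not taken as support.

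The RpS19b share of the pair does not depend on scaling. It was 0.0213% of RpS19a and RpS19b counts in anti-FLAG IP replicate 1 (95% Wilson interval 0.0127 to 0.0357), 0.0539% in replicate 2 (0.0395 to 0.0737) and 0.0646% in replicate 3 (0.0444 to 0.0939). At the floor of 3 counts, a count of 0 allows a share of up to 0.0184%, 0.0138% and 0.0237% in the IgG libraries and up to 0.0186%, 0.0193% and 0.0187% in the input libraries. The upper Wilson limits were higher, at 0.0236%, 0.0176% and 0.0304% in IgG and 0.0238%, 0.0248% and 0.0239% in input. In anti-FLAG IP replicates 2 and 3 the interval lay above all of these limits. In replicate 1 it included them, so that the share in that library was not set apart from the limit of any single control library. Replicate 1 had 14 RpS19b counts beside 65755 of RpS19a. The controls had 0 RpS19b counts beside RpS19a counts of 50739 summed over IgG and 47740 summed over input. Replicate 1 was not tested against these sums. Intervals and limits cover counting error only, since PCR copies of 1 molecule are counted apart. Whether reads of RpS19a, which were far more numerous in anti-FLAG IP, were assigned to RpS19b was not tested. Of 7306 features with no count in any IgG or input library, 3 had at least 10 counts in all 3 anti-FLAG IP libraries, namely RpS19b, CG13405 and CG31300, and 147 had at least 10 in exactly 1. Of 7095 features with no count in any anti-FLAG IP or input library, 0 had at least 10 counts in all 3 IgG libraries. Of 7399 with no count in any anti-FLAG IP or IgG library, 2 had at least 10 in all 3 input libraries. CG13405 and CG31300 are named here after their values were seen.

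**Figure D3:**
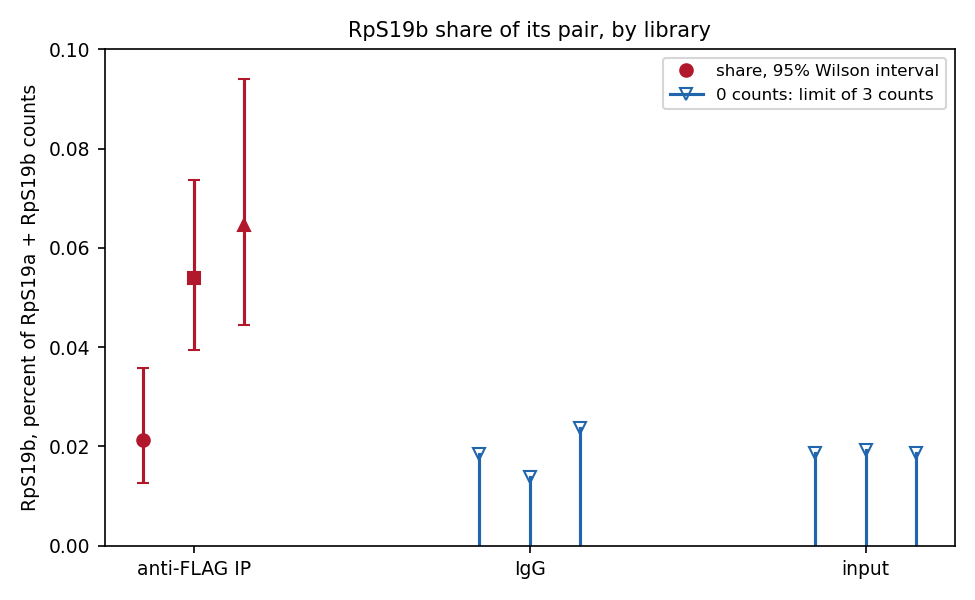
RpS19b as a percent of the summed RpS19a and RpS19b counts in each library, with replicates 1, 2 and 3 from left to right in each group. Red points are shares with their 95% Wilson intervals, and blue triangles mark the limit that a count of 0 allows at the floor of 3 counts. The intervals of anti-FLAG IP replicates 2 and 3 lie above all limits, while that of replicate 1, from 0.0127% to 0.0357%, spans them.

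RpL22 was the measured broadly expressed copy that was called in neither comparison. RpL22 (FBgn0015288; X:762560–765130, minus strand), a large subunit protein, had 392, 202 and 316 CPM in anti-FLAG IP, 182, 116 and 153 CPM in IgG, and 192, 184 and 302 CPM in input. Its anti-FLAG IP levels overlapped input, where replicate 3 was high, and lay above all IgG libraries. The log2 fold change was 0.44 ± 0.26 against input (edgeR adjusted p = 0.492). With library totals it was -0.41, above the median of all genes under that scaling. Against IgG it was 1.02 ± 0.26 (edgeR adjusted p = 0.0894). This last value was called without anti-FLAG IP replicate 2, at 1.23 (edgeR adjusted p = 0.0239), and with no filter on low counts (edgeR adjusted p = 0.00224). With the replicate number as a block it was 0.99 (edgeR adjusted p = 0.00658), which is short of 2-fold. In the annotation RpL22 overlaps 3 RNA genes on its own strand, 1 of them in an exon, and the part of their reads in its counts was not tested.

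The tissue-biased partner of RpL22 and that of RpS10b were near the floor. RpL22-like (FBgn0034837; 2R:23246610–23247893, minus strand) had 0, 0 and 12 counts in anti-FLAG IP, 0 in each IgG library, and 0, 0 and 7 counts in input. It was thus found only in libraries of replicate 3, as 0.342% of the pair in anti-FLAG IP (Wilson interval 0.196 to 0.596) and 0.158% in input (0.0767 to 0.327). Those intervals overlap. In the other libraries a count of 0 allows a share of 0.0893% to 0.237% at the floor of 3 counts, or 0.114% to 0.302% by the upper Wilson limit. RpS10a (FBgn0027494; 3R:27652760–27653363, plus strand), annotated as a single exon lying inside tau on the opposite strand, had 0, 0 and 3 counts in anti-FLAG IP and 0 in IgG and input. No fold change is given for either gene.

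The members were next set beside the ribosomal protein genes with a single copy, of which 65 of 69 listed matched a feature by identifier. All 65 were called higher against input and against IgG, with median log2 fold changes of 3.10 and 3.25, beside 0.01 and 0.00 over all genes tested. Against input the lowest was RpS18 at 2.07, and against IgG they ran from 2.32 for RpL10 to 4.18 for RpS21. RpS5a and RpS19a, at 3.01 and 2.93 against input, were close to the single-copy median. RpS15Aa, at 3.95, was exceeded by 3 single-copy genes. RpS5b, at 2.09, was above 1 of the 65 against input and 0 of them against IgG. RpL22 and RpS15Ab were below all 65 in both comparisons. The same-numbered median of the single-copy genes was 3.38, 3.72 and 2.02 on the log2 scale in replicates 1, 2 and 3 against input, and RpS5a followed the same order with 3.26, 3.77 and 1.91. RpS5b varied less, with 2.17, 2.56 and 1.59. RpL22 followed another order, with 1.03, 0.13 and 0.07. Without anti-FLAG IP replicate 3 the log2 fold changes against input were 3.22 for RpS5a, 2.10 for RpS5b, 4.26 for RpS15Aa, 3.24 for RpS19a, 0.40 for RpL22 and 0.03 for RpS15Ab, with the same 4 members called. Against IgG without that library they were 3.22 for RpS5a, 2.16 for RpS5b, 4.16 for RpS15Aa, 3.32 for RpS19a, 0.99 for RpL22 and 0.52 for RpS15Ab, again with the same 4 called.

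**Figure D4:**
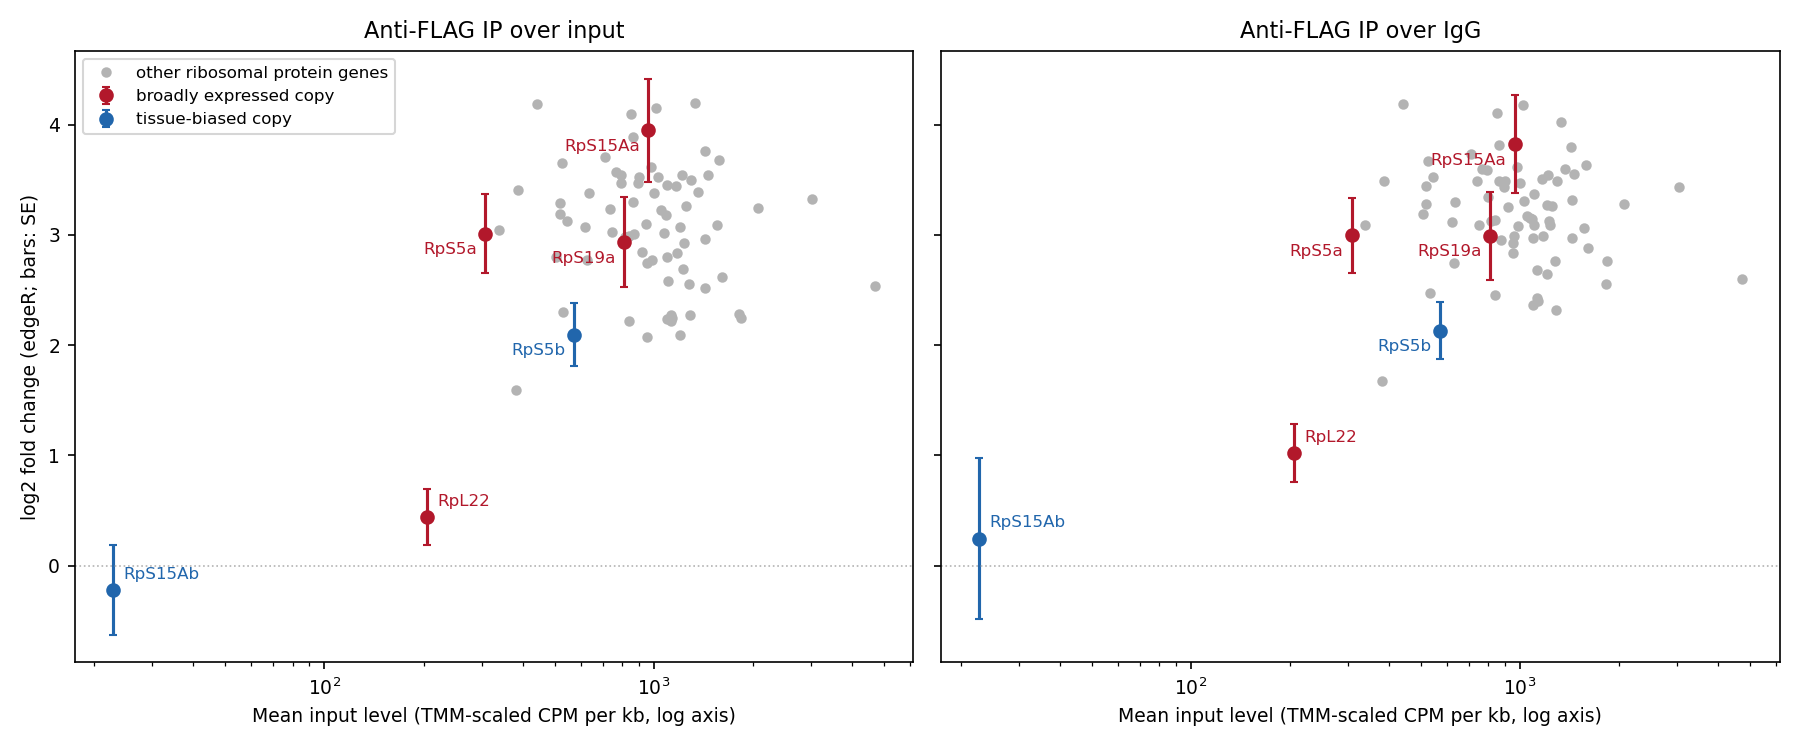
Log2 fold change of anti-FLAG IP over input (left) and over IgG (right) against the mean input level per kb on a log axis, with SE bars for the members. Grey points are the 65 single-copy and 7 other duplicated ribosomal protein genes tested, and RpS19b is left out because a fitted fold change against 0 counts is no bound. RpS5b lies near the lower edge of the grey points at 2.09 and 2.13. RpL34a is lower in both panels, at 1.59 and 1.68, and RpS18 on the left, at 2.07. RpL22 and RpS15Ab lie below all grey points.

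Among duplicated genes outside these pairs, the RpL34 copies gave a further case of unequal enrichment, whereas the RpS14 copy ratios overlapped between groups. Of 11 such genes, 7 were tested and all 7 were called higher in both comparisons. RpL34a and RpL34b encode the same large subunit protein. The log2 fold change against input was 1.59 ± 0.21 for RpL34a (edgeR adjusted p = 0.000275) and 2.80 ± 0.33 for RpL34b (edgeR adjusted p = 0.000265). The log2 ratio of RpL34a over RpL34b was -2.07, -1.72 and -0.94 in anti-FLAG IP, 0.01, -0.16 and -0.18 in IgG, and -0.41, -0.20 and -0.59 in input. Anti-FLAG IP was again the lowest group without overlap and replicate 3 the nearest to the controls, with a difference of -1.18 ± 0.35 from input (exact two-sided permutation test, p = 0.1), and -1.50 without replicate 3. The IgG ratios also lay above all input ratios, by 0.29 ± 0.13 (p = 0.1 by the same exact test). RpS14a and RpS14b are near-identical neighbours on the X chromosome, so that their reads may have been split between them. Their log2 fold changes were 3.40 and 3.04. Their ratio differed by -0.24 ± 0.24 between anti-FLAG IP and input, or by -0.45 without anti-FLAG IP replicate 3, and the groups overlapped. Of the RpL10A, RpS28 and RpL37 copies, RpL10Ab, RpS28b and RpL37-1 were abundant. RpL10Aa, RpS28a and RpS28-like had 0 counts in all 9 libraries, and RpL37-2 had 16 counts in anti-FLAG IP replicate 1 and 0 elsewhere.

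IgG was compared with input to see whether the copies differed in the background of the procedure. Of 7594 genes tested by edgeR, 0.0% were called higher and 0.0% lower. At an unadjusted p-value below 0.05 there were 465. None of the 6 members tested was called, by edgeR or by DESeq2, which called 23 genes higher and 10 lower. The log2 fold changes were 0.01 for RpS5a, -0.04 for RpS5b, 0.12 for RpS15Aa, -0.07 for RpS19a and -0.47 ± 0.62 for RpS15Ab. RpL22 had the only unadjusted p-value under 0.05 among the members, with -0.58 ± 0.23 (edgeR adjusted p = 0.777). Its IgG levels lay below all input levels, as did those of 8.56% of genes tested, and it was the 1 of 6 members to do so. For 0 of 6 did they lie above all input levels, beside 5.27% of genes tested. The log2 ratio of RpS15Ab over RpS15Aa differed by -0.91 ± 0.75 between IgG and input (exact two-sided permutation test, p = 0.2), and these groups overlapped. Without IgG replicate 3, the library lowest in RpS15Ab, the difference was -0.19.

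Levels per length set the abundant members in order. In input, RpS15Aa was highest at 963 CPM per kb, followed by RpS19a at 810, RpS5b at 573, RpS5a at 308 and RpL22 at 205, with RpS15Ab far lower at 22.7. In bulk samples, fewer cells of a type and less RNA per cell cannot be told apart, so a low level of a tissue-biased copy is a level in whole ovaries. RpS15Aa and RpS19a differed by less than the SD of RpS15Aa, 213, and RpS5a and RpL22 by less than the SD of RpS5a, 107. Such an SD is the spread of a single gene between libraries. It is not the error of a difference between genes read in the same libraries, which was not tested. The single-copy genes had a median of 1089 CPM per kb in input, from 443 for RpS21 to 4713 for RpL41. RpS5a and RpL22 were thus below all 65 of them, and RpS5b was above 6. In anti-FLAG IP the median single-copy level was 8649 CPM per kb, and RpS5a and RpS5b had 2452 ± 890 and 2415 ± 393 (SD, n = 3). RpS15Aa, at 14651 ± 7311, was above 57 of the 65, and RpL22, at 276 ± 87.2, below all of them.

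The broadly expressed and the tissue-biased copies differed in where they lie in the genome. All 5 broadly expressed copies are on the X chromosome and all 5 tissue-biased copies on 3R or 2R. Of the single-copy genes, 6 of 69 are on the X, as are 4 of the 11 other duplicated genes. RpS10b is at X:19598031–19599806 on the plus strand. The introns of RpS5a hold 14 snoRNA genes on its own strand, none of which overlaps an exon. Coordinates are those of BDGP6.54 and the counts were made on dm6.

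The genes whose levels followed each abundant member most closely were listed over the 9 libraries, among 6845 genes averaging 50 or more counts. For RpS19a these were RpS24 and RpS7 (Pearson's r of 0.999 for each). For RpS5a they were Rack1, which encodes a protein of the small subunit, and RpL3 (0.999 and 0.998). RpS15Aa was closest to a feature without a symbol and to RpL7 (0.999 for each). The genes nearest to RpS5b were not ribosomal protein genes: eIF3h, a subunit of a translation initiation factor, and Nacalpha, a subunit of the nascent polypeptide-associated complex (0.996 and 0.992). RpL22 had weaker matches in fng and CG1647 (0.931 and 0.872), as did RpS15Ab in CG32485 and Alh (0.962 and 0.948). The libraries share 3 groups, so any pair of genes enriched in anti-FLAG IP correlates, and these values are a description.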

How the data were processed

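RNA was extracted with TRIzol, treated with DNase and enriched for mRNA by poly(A) selection, and directional libraries were made with 13 min of fragmentation. The authors deposited raw read counts per FlyBase gene identifier and library. The submitters' processing notes name HISAT2 2.1.0, featureCounts 1.4.6 and dm6. The strand setting and annotation release are not given in the sources used here. Of 17024 features, 16647 matched a symbol. The unnamed ones held 5.13% to 12.5% of counts and stayed in totals and tests. A single one of them held 7.89%, 2.40% and 0.549% of counts in IgG replicates 1, 2 and 3. It held 0.160% to 0.323% in anti-FLAG IP and at most 0.0382% in input.

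Each pair of groups was fitted alone in edgeR 4.0.16 (R 4.3.3) after filterByExpr and TMM scaling (quasi-likelihood F test, robust), and SE came from the F statistic. CPM were scaled by TMM over all 9 libraries. Copy ratios added 0.5 to each count, and lengths came from Ensembl release 115 (BDGP6.54). Ratios were tested by exact two-sided permutation of 3 against 3 libraries (scipy 1.17.1), adjusted over 12 tests, some of which are not reported here. Shares have 95% Wilson intervals.

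Deviations from group means correlated at 0.154 to 0.480 between libraries with the same replicate number in the labels. What such libraries share was not tested. The main tests did not use the replicate numbers, which entered only the replicate block and the same-numbered differences. All members were named whatever their values, with the lowest and highest single-copy genes, the other duplicated genes and the 2 best-correlated genes. Members and lists were chosen with earlier results of these data known. The tests were tried on simulated data with 200 changed genes. Alternatives were RLE factors, library totals with and without ribosomal protein genes, no filter on low counts, DESeq2 1.42.0, a replicate block, all 9 libraries in 1 fit, each library left out and, chosen after seeing the data, features without a symbol left out and single libraries left out of the RpS19b bound and the RpL34 and RpS14 ratios.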

Additional observations from a re-analysis of the deposited data

How the results depend on the processing

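Of the members called, 4 stood against input and 4 against IgG, and 0 for IgG against input, under all alternatives but these: 5 were higher against input with library totals or no filter on low counts, and 5 against IgG with no filter. The added member was RpS19b against input and RpL22 against IgG. Leaving out 1 library gave 4 against input, 4 to 5 against IgG and 0 for IgG against input. With the replicate block the counts were 4, 4 and 0 and no call of a member changed. Library totals moved the median of all genes to -0.88 against input, with 103 genes higher and 2210 lower, and to -0.84 against IgG, with 98 higher and 1384 lower. RpS15Ab was then called lower against input at -1.16 (edgeR adjusted p = 0.0424). Under library totals RpS15Ab against IgG turned to -0.64, RpL22 against input to -0.41 and RpS5a in IgG against input to -0.014, or to -0.031 without ribosomal protein genes in the totals. With 1 library left out, the log2 fold change of RpS15Ab ran from -0.59 to 0.035 against input and from -0.18 to 0.87 against IgG. For IgG against input, those of RpS15Aa ran from -0.012 to 0.31, RpS5a from -0.21 to 0.33 and RpS5b from -0.18 to 0.24. None of these was called. The copy ratio difference between IgG and input with 1 library left out ran from -1.37 to -0.19 for RpS15A, -0.24 to 0.149 for RpS19 and -1.43 to 0.28 for RpL22, and that of RpL22 between anti-FLAG IP and input from -0.56 to 1.86. The RpS19 and RpL22 ratios rest on the pseudocount. The exact sign-flip permutation test of same-numbered ratios (replicate block) cannot go below p = 0.25. Without length scaling the RpS15Ab share in input was 1.84%. The cause was not tested, except that length scaling itself sets the share. A search of promoter sequence was not run. Depth limits RpS19b, RpL22-like and RpS10a, with 0 to 39 counts per library.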
